A study of Homo sapiens with 15 samples.

Results

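The effect of micheliolide (MCL), a sesquiterpene lactone of plant origin, was measured in UKE-1 cells stimulated with TNF-α. The comparison took 6 of the 15 RNA-seq libraries of the series: the 3 libraries of TNF-α stimulated cells given MCL (the MCL libraries) and the 3 of cells given TNF-α alone (the TNF-α libraries). They were chosen by the column names of the count table, in which the column of MCL replicate 1 is a library and not the gene of that name. UKE-1 is an established human leukaemia cell line that arose from a myeloproliferative neoplasm and carries an activating mutation of the kinase JAK2, and TNF-α was the inflammatory stimulus. The other 9 libraries came from TNF-α stimulated cells given MCL with ruxolitinib (3), TNF-α stimulated cells given ruxolitinib, an inhibitor of JAK1 and JAK2 (3), and untreated cells (3). Cells were collected 3 h after treatment, per the labels. Neither drug doses nor the duration of stimulation nor the independence of the 3 cultures behind each group is stated, so p-values reflect the spread among these libraries, and that spread may be technical.

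As background, micheliolide carries a methylene lactone group that can bind thiols, and thiol-reactive compounds are sensed by KEAP1, the adaptor that otherwise marks the transcription factor NRF2 (gene NFE2L2) for degradation. Stabilised NRF2 pairs with small MAF proteins on antioxidant response elements and raises genes of glutathione, thioredoxin, quinone and iron metabolism, while damaged protein in the cytosol activates the heat shock factors. TNF-α acts through NF-kB, which raises cytokines, adhesion molecules and its own inhibitors, and secondarily through interferon and JAK-STAT signalling.

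The MCL libraries held 15476399 to 16878423 counts and the TNF-α libraries 15593224 to 17026004. Of 58735 genes in the table, 16146 passed a filter on low counts and were tested. Of 12 haematopoietic markers, 11 were above 1 CPM (counts per 1000000 counts of the library) in all 6 libraries, CD38 being the exception, whereas the epithelial markers EPCAM and CDH1, the B cell marker MS4A1 and the fibroblast markers DCN and LUM were at 0 in all 6. The endothelial list (4 markers, all detected) summed to 198 to 208 CPM in the MCL libraries and 239 to 250 CPM in the TNF-α libraries, and the epithelial list, here KRT8 and KRT18 alone, to 109 to 114 CPM in the MCL and 122 to 132 CPM in the TNF-α libraries. The T cell list, mostly CD3D and CD3E, summed to 14.4 to 15.9 CPM with MCL and 18.7 to 20.9 CPM with TNF-α alone, and the haematopoietic list to 3038 to 3097 CPM with MCL and 3516 to 3571 CPM with TNF-α alone, so all 4 lists were lower with MCL without overlap. The B cell list overlapped between the groups, with 22.8 to 25.9 CPM in the MCL and 22.1 to 26.9 CPM in the TNF-α libraries. The macrophage list (3.16 to 4.27 CPM with MCL, 3.46 to 5.64 CPM with TNF-α alone) and the fibroblast list (at most 0.237 CPM) overlapped too. The part of these lists in the results was not tested. Mitochondrial transcripts took 4.55% ± 0.217 of the counts in the MCL libraries and 5.12% ± 0.151 in the TNF-α libraries (SD, n = 3 each), without overlap. In bulk RNA, fewer cells of a type and less RNA per cell cannot be told apart.

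With MCL genes changed in both directions, and the largest single changes were rises. Levels are given as CPM scaled by the TMM method, and changes as log2 fold changes of MCL over TNF-α alone with their standard error (SE), from edgeR's quasi-likelihood test with Benjamini-Hochberg adjustment over all tested genes. At an adjusted p under 0.05, 4199 genes (26%) passed, 1757 (10.9%) higher with MCL and 2442 (15.1%) lower. At least 2-fold changes were found in 124 genes that were higher (0.768%) and 351 that were lower (2.17%). The libraries of the groups did not overlap in 6302 genes (39%). Scaling to library totals moved the split to 2381 higher and 2054 lower (53.7% of the calls higher, in place of 41.8%), while the median change over all tested genes was -0.02 with TMM and 0.015 with library totals. The genes that rose by 2-fold or more had a median level of 0.958 CPM in the TNF-α libraries and those that fell by as much 2.26 CPM, against 17.8 CPM over all tested genes, so most of the large changes concerned genes with few reads.

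**Figure D1:**
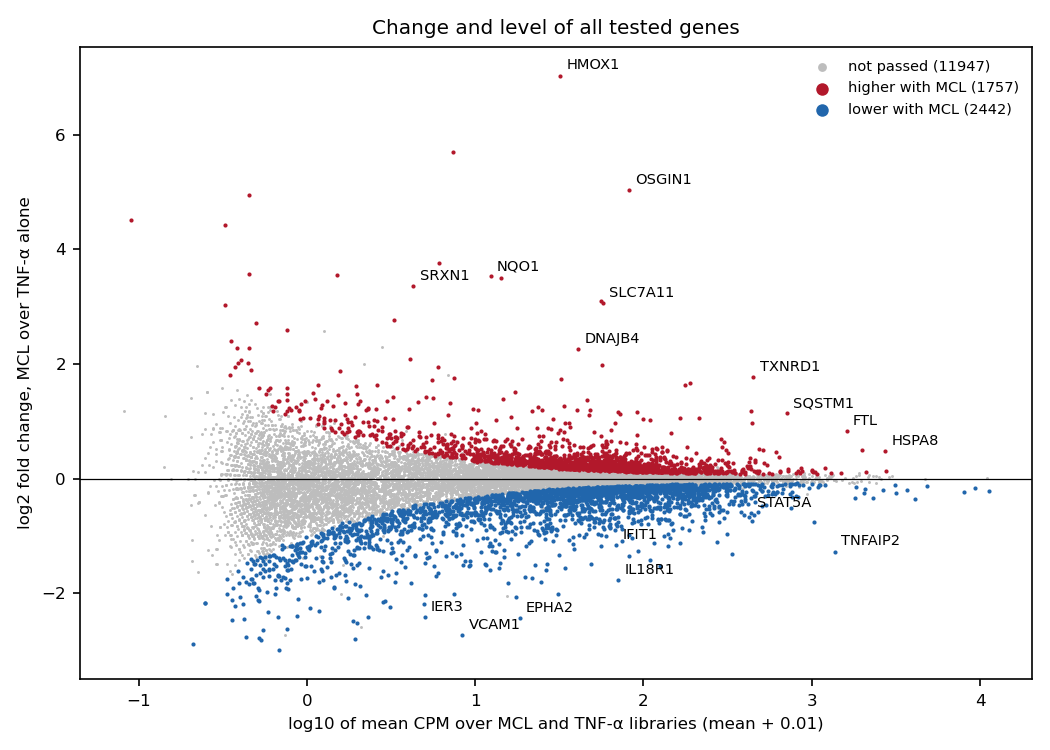
Log2 fold change of MCL over TNF-α alone (vertical axis) against the log10 of the mean CPM over the 6 libraries (horizontal axis) for 16146 tested genes. Each point is a gene, red where it passed and was higher with MCL (1757), blue where it passed and was lower (2442) and grey where it did not pass. HMOX1 stands highest, and the points that passed lie above and below 0 at every level.

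The NRF2 system was described first by its regulators. Of 10 tested genes for NRF2, its inhibitor, its partners and competitors, 6 rose, 2 fell and 2 did not pass (median 0.21, against -0.02 over all tested genes). MAFG, a small MAF partner of NRF2, had 263, 269 and 276 CPM in the MCL libraries, against 89.7, 86.5 and 82.4 CPM in the TNF-α libraries. All 3 MCL libraries lay above all 3 TNF-α libraries, and the log2 change was 1.64 ± 0.04 (adjusted p = 1.52e-41). KEAP1 had 217, 218 and 212 CPM in the MCL libraries, against 149, 138 and 152 CPM in the TNF-α libraries (0.56 ± 0.04, adjusted p = 3.12e-18). BACH1, a repressor that competes with NRF2 for the same DNA element, had 145, 142 and 136 CPM in the MCL libraries, against 96.2, 98.1 and 96.7 CPM in the TNF-α libraries (0.54 ± 0.04, adjusted p = 2.11e-17). For both the groups did not overlap, so an inhibitor of NRF2 and a competitor of it were higher together with its partner. NFE2L2 itself had 71.2, 79.3 and 72.5 CPM in the MCL libraries, against 68.0, 66.2 and 64.3 CPM in the TNF-α libraries, a log2 change of 0.17 ± 0.05 (adjusted p = 0.0133) that did not pass without MCL replicate 2 (0.12, adjusted p = 0.137). NFE2, the relative of NRF2 that serves in megakaryocytes and red cells, went the other way with 20.1, 18.5 and 20.1 CPM in the MCL libraries, against 34.6, 36.5 and 35.1 CPM in the TNF-α libraries (-0.85 ± 0.07, adjusted p = 3.09e-15).

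The antioxidant response element was searched in the promoters of the named genes as the letters TGACNNNGC on both strands, in windows of 250 bases before and 50 bases after each start site of the RefSeq promoter table (GRCh38.p14). It occurs in 13.3% of all 35116 promoters in that table, so a match is a description and not a site of binding. The table held promoters for 10377 of the 16146 tested genes (64.3%) and for 111 of the 166 genes named by rule, which is too few for a share over a gene list. Windows with a match are shown for 5 genes that rose, with the matched letters in capitals, each on the strand of its gene from 5′ to 3′. They lie at chr12:104215660-104215708 (plus strand) for TXNRD1, chr1:93909436-93909484 (minus) for GCLM, chr6:83431160-83431208 (minus) for ME1, chr11:62881642-62881690 (plus) for SLC3A2 and chr19:10502774-10502822 (minus) for KEAP1.
TXNRD1: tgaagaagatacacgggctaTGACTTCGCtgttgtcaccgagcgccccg
GCLM: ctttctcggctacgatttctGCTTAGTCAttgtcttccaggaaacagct
ME1: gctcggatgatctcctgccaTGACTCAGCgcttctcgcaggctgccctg
SLC3A2: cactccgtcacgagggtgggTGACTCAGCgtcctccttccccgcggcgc
KEAP1: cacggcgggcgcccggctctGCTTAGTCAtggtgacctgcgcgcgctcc
The letters were also found in the windows of named genes that fell, among them TNFAIP2, EBI3, FAS, CFLAR, BCL2L1 and MKI67. They were not found in the windows of OSGIN1, NQO1, SRXN1 and MAFG, which rose, and this says only that these letters are not in those windows. HMOX1 and SLC7A11 have no entry in the table. In ME1 and SLC3A2 the matched letters are the same, and in GCLM and KEAP1 the capitals are the reverse complement of the element and again the same.

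Of 31 tested genes of glutathione supply and use, 10 rose, 2 fell and 19 did not pass (median 0.08). SLC7A11, the cystine transporter that feeds glutathione synthesis, had 101, 105 and 101 CPM in the MCL libraries, against 11.4, 12.4 and 12.7 CPM in the TNF-α libraries. GCLM, a subunit of the rate-limiting enzyme of that synthesis, had 96.7, 110.3 and 94.8 CPM in the MCL libraries, against 10.8, 12.8 and 11.6 CPM in the TNF-α libraries. The lowest MCL library of each stood well above the highest TNF-α library, and in the fit SLC7A11 was 8.39-fold (3.07 ± 0.06) and GCLM 8.55-fold higher (3.10 ± 0.07). SLC7A11 overlaps an antisense gene, and strand use in counting is not given. GSR, which recycles oxidised glutathione, had 288, 292 and 287 CPM in the MCL libraries, against 142, 136 and 138 CPM in the TNF-α libraries (1.06 ± 0.04, adjusted p = 5.41e-32). CHAC1, an enzyme that breaks glutathione down, rose as well, with 47.8, 50.6 and 50.2 CPM in the MCL libraries, against 14.9, 14.4 and 15.3 CPM in the TNF-α libraries (1.74 ± 0.07). GPX3, the secreted glutathione peroxidase, fell, with 2.30, 1.24 and 1.92 CPM in the MCL libraries, against 7.03, 6.49 and 5.90 CPM in the TNF-α libraries (-1.82 ± 0.22, adjusted p = 3.44e-10). The peroxidases GPX1 at 0.04 and GPX4 at 0.09, named after their values were seen, did not pass.

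Of 20 tested genes of the thioredoxin system 7 rose, 1 fell and 12 did not pass (median 0.08). TXNRD1, the cytosolic thioredoxin reductase, had 699.8, 698 and 689 CPM in the MCL libraries, against 199.8, 207 and 207 CPM in the TNF-α libraries (1.77 ± 0.03, adjusted p = 2.89e-47). SRXN1, which repairs over-oxidised peroxiredoxins, had 8.32, 6.99 and 8.10 CPM in the MCL libraries, against 1.25, 0.240 and 0.807 CPM in the TNF-α libraries (3.36 ± 0.25), and these values rest on 141, 107 and 131 counts in the MCL libraries against 19, 4 and 13 in the TNF-α libraries. TXN, thioredoxin itself, moved less, with 266, 285 and 256 CPM in the MCL libraries, against 225, 229 and 231 CPM in the TNF-α libraries (0.24 ± 0.04, adjusted p = 7.21e-07), still without overlap. TXNIP, the inhibitor of thioredoxin, was the member that fell, with 36.5, 40.2 and 38.2 CPM in the MCL libraries, against 63.4, 64.1 and 66.9 CPM in the TNF-α libraries (-0.76 ± 0.06, adjusted p = 2.57e-17). The reductase and its substrate were thus higher and the inhibitor lower in each MCL library.

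Quinone and carbonyl detoxification showed a narrower pattern, with 4 of 20 tested genes higher, 0 lower and 16 that did not pass (median 0.05). The 0 lower calls stood at the same number with DESeq2 size factors and with library totals, where 5 were higher. OSGIN1, an oxidative stress response gene, had 157, 158 and 162 CPM in the MCL libraries, against 4.60, 5.11 and 4.84 CPM in the TNF-α libraries (5.03 ± 0.08, adjusted p = 5.42e-52). NQO1, the quinone reductase, had 23.1, 23.5 and 21.5 CPM in the MCL libraries, against 1.77, 2.34 and 1.74 CPM in the TNF-α libraries (3.53 ± 0.15). The remaining rises were small, NQO2 at 0.48 ± 0.07 and the epoxide hydrolase EPHX1 at 0.33 ± 0.08.

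Enzymes that supply NADPH, the electron donor of these systems, rose in 8 of 17 cases, with 2 lower and 7 that did not pass (median 0.10). ME1, the cytosolic malic enzyme, had 96.8, 98.6 and 96.2 CPM in the MCL libraries, against 40.0, 43.2 and 46.8 CPM in the TNF-α libraries (1.16 ± 0.06, adjusted p = 2.18e-26). PGD, a dehydrogenase of the pentose phosphate route, changed by less, with 351, 388 and 359 CPM in the MCL libraries, against 265, 272 and 271 CPM in the TNF-α libraries (0.44 ± 0.04). TALDO1, of the non-oxidative branch of that route, was at 0.51 ± 0.04. Each of the 3 was higher in every MCL library than in any TNF-α library.

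Among haem and iron genes the steepest rises were in haem breakdown, iron storage and haem transport. Of 29 tested, 9 rose, 2 fell and 18 did not pass (median 0.08). HMOX1, which degrades haem and releases its iron, had 67.6, 58.4 and 64.9 CPM in the MCL libraries, against 0.526, 0.300 and 0.621 CPM in the TNF-α libraries, from 1146, 895 and 1051 counts with MCL and 8, 5 and 10 counts with TNF-α alone. The fold change of 131 in the fit thus rests on few counts in the TNF-α libraries. The iron store ferritin rose in both chains, FTH1 with 597, 632 and 596 CPM in the MCL libraries, against 255, 272 and 276 CPM in the TNF-α libraries (1.18 ± 0.05) and FTL with 2066, 2106 and 2026 CPM in the MCL libraries, against 1166, 1153 and 1178 CPM in the TNF-α libraries (0.83 ± 0.03). Both have processed pseudogenes, and how reads matching several places were treated is not given. SLC48A1, a haem transporter of endolysosomes, had 145, 149 and 145 CPM in the MCL libraries, against 71.5, 72.7 and 71.8 CPM in the TNF-α libraries (1.02 ± 0.04, adjusted p = 9.82e-30). The 2 members that fell were TFRC, the transferrin receptor, at -0.24 ± 0.03 and NCOA4, the cargo receptor that sends ferritin to degradation, at -0.14 ± 0.04, both named after their values were seen. Of 14 genes of metallothioneins and zinc transport 6 rose, 0 fell and 8 did not pass (median 0.07), with the same counts in 3 other fits, and the zinc importer SLC39A14 was at 0.30 ± 0.04. The metallothionein genes MT2A, MT1X and MT1F, named after their values were seen, were at -0.14, -0.04 and -0.14 and did not pass.

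**Figure D2:**
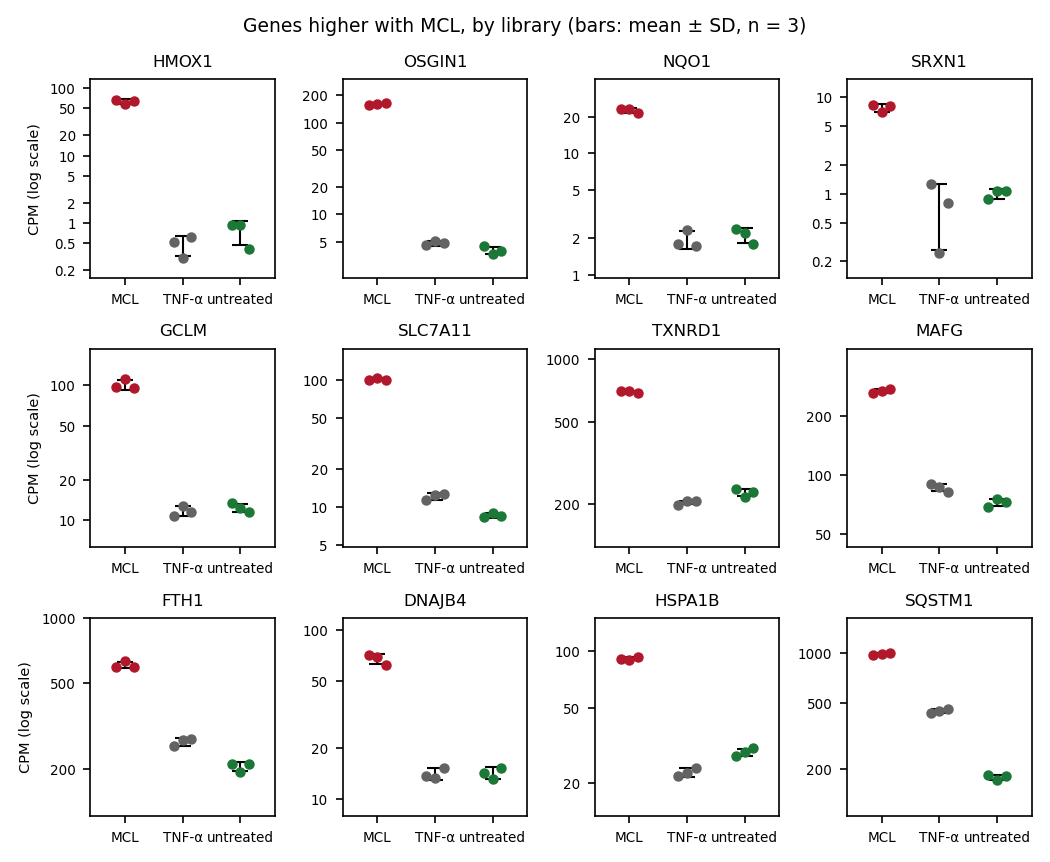
CPM on a log axis in each library for 12 genes that were higher with MCL, with the MCL libraries on the left, the TNF-α libraries in the middle and the untreated libraries on the right. Points are libraries, and bars give the mean ± SD of 3. In each panel the 3 MCL libraries lie above the other 6.

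Chaperone genes rose in a graded way. Of 40 tested members of the HSP70 family and its DNAJ and BAG partners, 24 rose, 2 fell and 14 did not pass (median 0.16). DNAJB4, an HSP40 co-chaperone, had 71.7, 69.5 and 62.2 CPM in the MCL libraries, against 13.7, 13.3 and 15.4 CPM in the TNF-α libraries (2.26 ± 0.07, adjusted p = 1.39e-36). DNAJB1, the main inducible HSP40, had 216, 228 and 222 CPM in the MCL libraries, against 109, 107 and 104 CPM in the TNF-α libraries (1.06 ± 0.04). HSPA8, the constitutive HSP70, changed by a smaller factor at a far higher read level, with 3129, 3275 and 3159.8 CPM in the MCL libraries, against 2282, 2225 and 2346 CPM in the TNF-α libraries (0.48 ± 0.03, adjusted p = 2.46e-21). The inducible HSP70 genes HSPA1B and HSPA1A were at 1.99 ± 0.05 and 2.09 ± 0.38, but they are near-identical copies and their reads may be divided between them. HSPH1, a nucleotide exchange factor of HSP70, had 349, 359 and 359 CPM in the MCL libraries, against 224, 222 and 216 CPM in the TNF-α libraries (0.69 ± 0.03). Among 19 genes of HSP90, small heat shock proteins and heat shock factors 9 rose, 2 fell and 8 did not pass (median 0.10), with HSP90AA1, the inducible cytosolic HSP90, at 0.50 ± 0.03 and its activator AHSA1 at 0.34 ± 0.04. FKBP5, an HSP90 co-chaperone that binds steroid receptors, was one of the members that fell (-0.28 ± 0.03). The cytosolic chaperonin moved little: 2 of 14 rose, TCP1 at 0.17 ± 0.03 and CCT6A at 0.14 ± 0.03, and 12 did not pass, while 5 rose with library totals. The share of 14.3% higher was near the 10.9% over all tested genes.

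A heat shock element, searched as TTCNNGAANNTTC on both strands, occurs in 0.49% of the promoters of the table. It was found in the windows of HSPA8 at chr11:123062159-123062211 (minus strand) and of HSP90AA1 at chr14:102087100-102087152 (minus strand). These are shown, with the matched letters in capitals, for the named genes in whose windows it was found. HSPA8 held a further match at chr11:123062334-123062386 (minus strand), which is not shown. The element was not found in the windows of HSPA1A, HSPA1B, DNAJB1, DNAJB4 and HSPH1. This says only that these letters are not in the window.
HSPA8: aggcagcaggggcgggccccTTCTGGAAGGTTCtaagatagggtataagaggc
HSP90AA1: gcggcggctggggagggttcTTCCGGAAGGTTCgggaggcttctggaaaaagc

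Of 37 proteasome genes 24 rose, 0 fell and 13 did not pass, with a median of 0.14 and a range of -0.08 to 0.36. With library totals 28 rose and 0 fell. PSMD11, a subunit of the regulatory lid, had 193, 209.5 and 199.8 CPM in the MCL libraries, against 164, 161 and 144 CPM in the TNF-α libraries (0.36 ± 0.04, adjusted p = 1.73e-10). PSMB6, a catalytic core subunit, had 89.5, 98.6 and 92.3 CPM in the MCL libraries, against 77.9, 78.4 and 79.3 CPM in the TNF-α libraries (0.25 ± 0.05). Among 32 autophagy genes 15 rose, 3 fell and 14 did not pass (median 0.16, range -1.11 to 1.42). SQSTM1, the receptor p62 that binds ubiquitinated cargo and KEAP1, had 973, 985 and 988 CPM in the MCL libraries, against 432, 446 and 458 CPM in the TNF-α libraries (1.14 ± 0.03, adjusted p = 7.43e-38). TFE3, a transcription factor of lysosome genes, had 109, 118 and 116 CPM in the MCL libraries, against 63.6, 67.8 and 71.2 CPM in the TNF-α libraries (0.76 ± 0.05). Untreated cells had 185, 173 and 183 CPM of SQSTM1 and 36.6, 33.5 and 32.5 CPM of TFE3, so both genes stood above the TNF-α level on the side away from untreated cells. OPTN, another autophagy receptor, fell, with 87.7, 95.2 and 84.7 CPM in the MCL libraries, against 116, 111 and 107 CPM in the TNF-α libraries (-0.32 ± 0.05).

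Of 23 genes of the unfolded protein response 16 rose, 1 fell and 6 did not pass (median 0.18), a share of 69.6% higher. HERPUD1, of the degradation route of the reticulum, had 71.5, 78.3 and 70.0 CPM in the MCL libraries, against 45.5, 49.3 and 44.5 CPM in the TNF-α libraries (0.66 ± 0.06), and HSPA5, its main chaperone, had 709, 743 and 719.5 CPM in the MCL libraries, against 549.6, 548 and 567 CPM in the TNF-α libraries (0.38 ± 0.03). Of 20 genes of ATF4, CHOP and related stress factors 11 rose, 2 fell and 7 did not pass (median 0.20). ATF4, which is controlled mainly by translation, had 566, 589 and 569 CPM in the MCL libraries, against 402, 393 and 414 CPM in the TNF-α libraries (0.51 ± 0.03). Its target DDIT4, an inhibitor of mTOR signalling, had 21.8, 22.3 and 22.2 CPM in the MCL libraries, against 10.8, 9.67 and 11.1 CPM in the TNF-α libraries (1.07 ± 0.10), and ATF3, a stress-induced repressor, had 14.1, 13.3 and 13.3 CPM in the MCL libraries, against 6.31, 6.01 and 5.28 CPM in the TNF-α libraries (1.21 ± 0.12). JDP2, another bZIP repressor, was at 0.88 ± 0.07. Of 21 genes of amino acid enzymes and transporters 10 rose, 0 fell and 11 did not pass (median 0.19). The glutamine transporter SLC38A2 had 370.4, 371 and 358 CPM in the MCL libraries, against 235, 242 and 231 CPM in the TNF-α libraries (0.63 ± 0.03), and the neutral amino acid exchanger SLC7A5 with its partner SLC3A2 was at 0.50 ± 0.03 and 0.56 ± 0.03. Of 23 cytosolic tRNA synthetases 9 rose, 0 fell and 14 did not pass (median 0.07), with AARS at 0.33 ± 0.04 and GARS at 0.32 ± 0.03. The counts of 0 lower in the amino acid and synthetase lists were also 0 with DESeq2 size factors, library totals and the replicate number as a block.

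Cholesterol and fatty acid synthesis rose in 12 of 31 tested genes, with 1 lower and 18 that did not pass (median 0.08; 17 higher and 0 lower with library totals). MSMO1, an enzyme of cholesterol synthesis, was at 0.23 ± 0.05. The 2 sterol exporters of the LXR list went apart: ABCA1 had 3.72, 3.33 and 3.15 CPM in the MCL libraries, against 2.10, 2.16 and 1.37 CPM in the TNF-α libraries (0.86 ± 0.21, adjusted p = 0.00113) and ABCG1 had 1.00, 0.849 and 0.803 CPM in the MCL libraries, against 2.10, 4.20 and 3.42 CPM in the TNF-α libraries (-1.87 ± 0.29, adjusted p = 4.83e-07). Both were under 5 CPM in all 6 libraries. Of 31 glycolysis and hypoxia genes 6 rose and 4 fell (19.4% and 12.9%, against 10.9% and 15.1% over all tested genes, median 0.03). The numbers were 11 and 3 with library totals. SLC2A3, a glucose transporter, had 30.6, 35.6 and 33.5 CPM in the MCL libraries, against 61.7, 59.8 and 62.4 CPM in the TNF-α libraries (-0.89 ± 0.08), whereas EGLN3, an oxygen-sensing hydroxylase, had 4.13, 4.31 and 3.28 CPM in the MCL libraries, against 1.77, 1.14 and 0.870 CPM in the TNF-α libraries (1.63 ± 0.26).

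**Figure D3:**
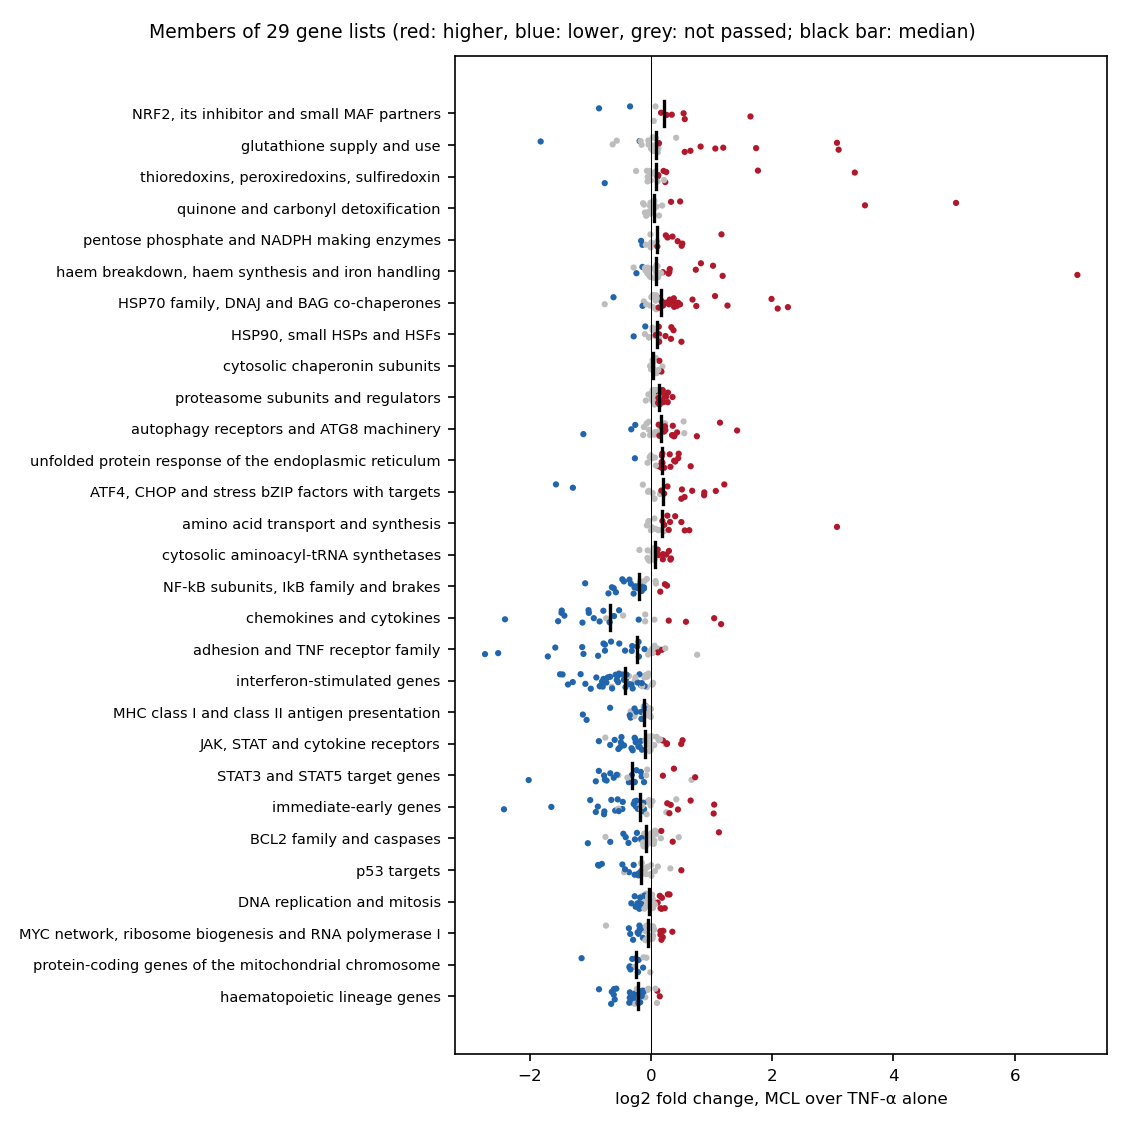
Log2 fold change of MCL over TNF-α alone for the tested members of 29 gene lists, 1 list per line. Each point is a gene, red where it passed and was higher with MCL, blue where it passed and was lower and grey where it did not pass, and the black bar is the list's median. Medians lie above 0 in the redox, chaperone and degradation lists at the top and below 0 from the NF-kB list downward, that of DNA replication (-0.03) turning to 0.00 with library totals.

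NF-kB subunits, the IkB family and the brakes of the pathway were mostly lower with MCL. Of 26 tested, 3 rose, 18 fell and 5 did not pass (median -0.20, with 4 and 15 under library totals). TRAF1, an adaptor of TNF receptor complexes, had 49.1, 45.3 and 49.3 CPM in the MCL libraries, against 103, 101 and 101 CPM in the TNF-α libraries (-1.08 ± 0.06, adjusted p = 5.09e-25). IKBKE, a kinase of the IKK family, had 99.7, 95.4 and 96.9 CPM in the MCL libraries, against 160.1, 155 and 159 CPM in the TNF-α libraries (-0.70 ± 0.04), and TNIP1, a partner of the brake A20, had 296, 305 and 309 CPM in the MCL libraries, against 444, 454 and 458 CPM in the TNF-α libraries (-0.58 ± 0.04). NFKB1, a subunit of the factor itself, had 289, 283 and 292 CPM in the MCL libraries, against 385, 386 and 405 CPM in the TNF-α libraries (-0.44 ± 0.03). The MCL libraries of all 4 lay between the TNF-α libraries and the untreated ones, which had 3.74, 2.94 and 3.10 CPM of TRAF1 and 117, 118 and 116 CPM of NFKB1. RELA, the main activating subunit, was at 0.08 and did not pass (adjusted p = 0.181), and it is named after its value was seen.

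Secreted products split. Of 25 tested chemokine and cytokine genes 4 rose, 15 fell and 6 did not pass (median -0.68), and 13 more of the list had too few counts to be tested. LTB, the membrane lymphotoxin, had 68.8, 63.6 and 61.5 CPM in the MCL libraries, against 182, 181 and 198 CPM in the TNF-α libraries (-1.53 ± 0.05, adjusted p = 1.61e-32). EBI3, a subunit shared by IL-27 and IL-35, had 57.4, 64.9 and 55.2 CPM in the MCL libraries, against 156, 161 and 159.5 CPM in the TNF-α libraries (-1.43 ± 0.05). The neutrophil chemokines CXCL3 and CXCL8 were higher in every MCL library: CXCL3 had 128, 121 and 129 CPM in the MCL libraries, against 55.4, 57.5 and 56.3 CPM in the TNF-α libraries (1.16 ± 0.05), and CXCL8 had 135, 136 and 130.3 CPM in the MCL libraries, against 62.0, 68.6 and 64.0 CPM in the TNF-α libraries (1.04 ± 0.05). Untreated cells had 16.6, 13.3 and 14.9 CPM of CXCL3, so MCL and TNF-α libraries both stood above them, the MCL libraries by more.

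Of 31 tested genes of adhesion, costimulation and the TNF receptor family 2 rose, 19 fell and 10 did not pass (median -0.22). VCAM1, the ligand of integrin VLA-4, had 2.71, 2.15 and 1.67 CPM in the MCL libraries, against 13.9, 14.1 and 15.8 CPM in the TNF-α libraries (-2.73 ± 0.16), from 46, 33 and 27 counts with MCL and 212, 234 and 254 counts with TNF-α alone. TNFRSF4, the costimulatory receptor OX40, had 99.3, 101 and 109 CPM in the MCL libraries, against 221, 225 and 233 CPM in the TNF-α libraries (-1.13 ± 0.05). TNFRSF1B, the second TNF receptor, had 43.2, 41.3 and 44.4 CPM in the MCL libraries, against 74.4, 72.4 and 71.1 CPM in the TNF-α libraries (-0.76 ± 0.05), and the untreated libraries had 78.4, 80.8 and 79.7 CPM. For this receptor the MCL libraries lay below both other groups, whereas for VCAM1 and TNFRSF4 they lay between them.

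Interferon-stimulated genes made the longest list without a rise. Of 50 tested, 0 rose, 36 fell and 14 did not pass, a share of 72% lower against 15.1% over all tested genes (median -0.43). The 0 rises and 33 falls with library totals, and 0 and 34 with DESeq2 size factors, left the direction as it was. GBP5, a guanylate-binding protein, had 12.2, 14.7 and 15.1 CPM in the MCL libraries, against 38.7, 41.5 and 38.4 CPM in the TNF-α libraries (-1.50 ± 0.09, adjusted p = 5.26e-21). DDX58, the RNA sensor RIG-I, had 45.7, 45.5 and 46.8 CPM in the MCL libraries, against 79.8, 83.8 and 75.7 CPM in the TNF-α libraries (-0.79 ± 0.06), and OAS3, which makes the activator of RNase L, had 395, 372 and 387 CPM in the MCL libraries, against 578, 573 and 577 CPM in the TNF-α libraries (-0.58 ± 0.03). Their untreated levels were 4.05, 4.67 and 6.01 CPM for GBP5 and 306, 317 and 313 CPM for OAS3, below the MCL libraries. IFIT1 overlaps LIPA on the opposite strand and was at -1.16 ± 0.06.

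Antigen presentation fell in 12 of 28 tested genes, with 0 higher and 16 that did not pass (median -0.11; 9 lower and 0 higher with library totals). The largest fall was at its regulator: CIITA, the master activator of MHC class II genes, had 71.0, 71.6 and 76.7 CPM in the MCL libraries, against 159.8, 158 and 159.8 CPM in the TNF-α libraries (-1.12 ± 0.04, adjusted p = 2.51e-31). HLA-DMB, which helps load class II molecules, had 11.6, 9.21 and 11.5 CPM in the MCL libraries, against 14.1, 18.1 and 19.3 CPM in the TNF-α libraries (-0.67 ± 0.12). TAP1, of the peptide transporter for class I, was at -0.35 ± 0.06 and its partner TAPBP at -0.24 ± 0.04. Of the class I heavy chains, HLA-C at -0.07 did not pass, and HLA-B was at -0.09 (adjusted p = 0.0354). Both are named after their values were seen, and reads may be divided between such similar genes.

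Elements of both pathways were searched in the same promoter windows, an NF-kB element as GGGANNTNCC (4.93% of all promoters) and an interferon element as TTTCNNTTTC (3.57%). Windows are shown with the match in capitals for VCAM1 (chr1:100719660-100719709, plus strand), NFKB1 (chr4:102501290-102501339, plus strand) and LTB (chr6:31582482-31582531, minus strand), which fell, and for CXCL3 (chr4:74038739-74038788, minus strand), which rose.
VCAM1: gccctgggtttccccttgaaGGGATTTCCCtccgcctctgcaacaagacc
NFKB1: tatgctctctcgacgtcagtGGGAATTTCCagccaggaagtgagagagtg
LTB: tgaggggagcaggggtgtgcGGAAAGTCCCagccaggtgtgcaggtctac
CXCL3: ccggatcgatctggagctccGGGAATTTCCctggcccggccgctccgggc
The matched letters of NFKB1 and CXCL3 are the same although the genes moved in opposite directions. Those of LTB are the reverse complement of the element, and those of VCAM1 match it on both strands. The interferon element is shown for IFIT1 (chr10:89392487-89392536, plus strand) and TAP1 (chr6:32853809-32853858, minus strand), both lower with MCL.
IFIT1: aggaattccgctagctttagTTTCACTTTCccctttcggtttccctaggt
TAP1: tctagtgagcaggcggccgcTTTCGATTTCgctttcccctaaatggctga

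**Figure D4:**
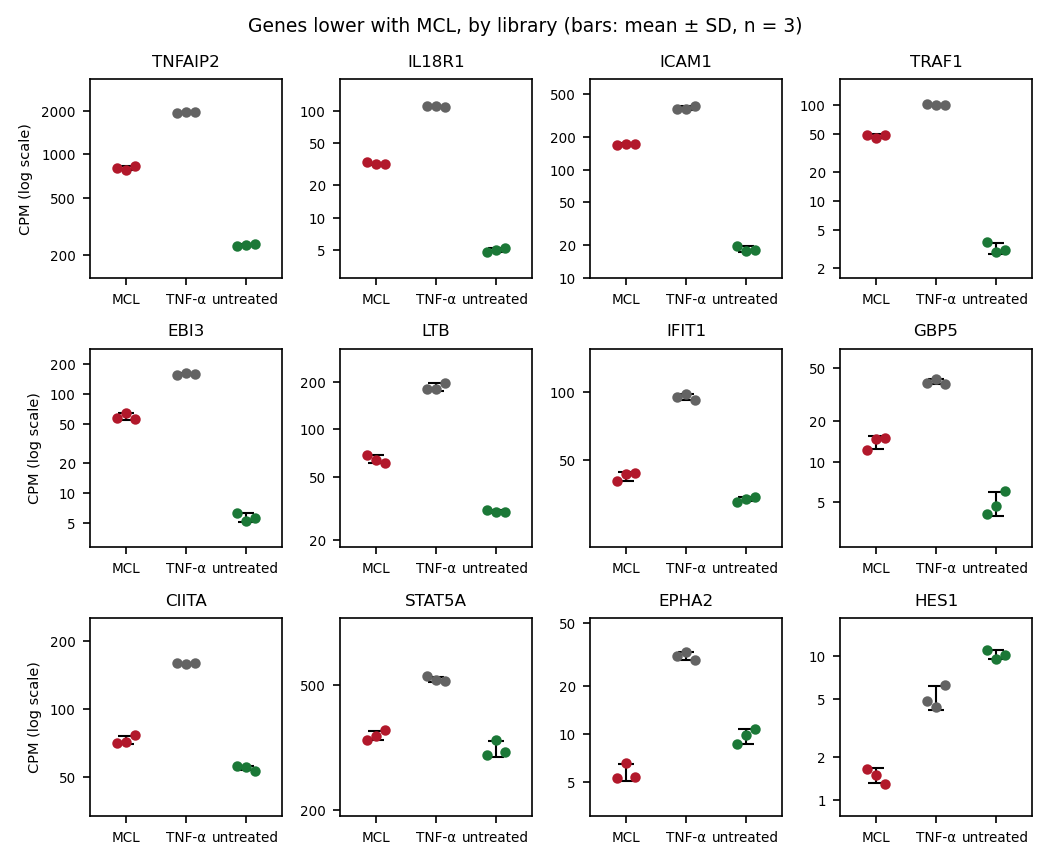
CPM on a log axis in each library for 12 genes that were lower with MCL, in the order MCL, TNF-α and untreated libraries. Points are libraries, and bars give the mean ± SD of 3. For TNFAIP2, ICAM1, EBI3 and most others the MCL libraries lie between the TNF-α and the untreated libraries, for EPHA2 and HES1 below both.

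Genes of JAK kinases, STATs and cytokine receptors, a pathway that the title of the series names by STAT3 and STAT5, were lower in 17 of 39 cases, with 5 higher and 17 that did not pass (median -0.09). STAT5A had 335, 344 and 359 CPM in the MCL libraries, against 534, 521 and 515 CPM in the TNF-α libraries (-0.60 ± 0.04, adjusted p = 3.13e-17). STAT5B had 83.9, 81.9 and 84.3 CPM in the MCL libraries, against 119, 123 and 121 CPM in the TNF-α libraries (-0.54 ± 0.04, adjusted p = 8.74e-16). In both genes the groups were separate, whereas STAT3 had 249, 249 and 261 CPM in the MCL libraries, against 255, 255 and 273 CPM in the TNF-α libraries, which overlap, at -0.05 ± 0.04 (adjusted p = 0.369). JAK2 had 34.3, 38.8 and 33.6 CPM in the MCL libraries, against 40.4, 43.8 and 38.8 CPM in the TNF-α libraries, also overlapping, at -0.21 ± 0.07 (adjusted p = 0.0137), but JAK2 no longer passed when TNF-α replicate 2 was left out (-0.13, adjusted p = 0.206). The same held on leaving out MCL replicate 1, at -0.18 (adjusted p = 0.0745), and on leaving out MCL replicate 3, at -0.17 (adjusted p = 0.0888). TYK2, another kinase of the family, had 214, 210.0 and 224 CPM in the MCL libraries, against 312, 308 and 301 CPM in the TNF-α libraries (-0.51 ± 0.04). SH2B3, the adaptor LNK that restrains JAK2, had 213, 221 and 222 CPM in the MCL libraries, against 296, 308 and 314 CPM in the TNF-α libraries (-0.49 ± 0.04). These are transcript levels, and phosphorylation was not measured.

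Of 25 STAT3 and STAT5 target genes 3 rose, 17 fell and 5 did not pass (median -0.31). JUNB, an AP-1 subunit, had 90.6, 92.8 and 90.0 CPM in the MCL libraries, against 151, 158 and 158 CPM in the TNF-α libraries (-0.77 ± 0.04), and CCND1, cyclin D1, had 105, 108 and 104 CPM in the MCL libraries, against 172, 178 and 175 CPM in the TNF-α libraries (-0.73 ± 0.04). LRRC32, which holds latent TGF-β at the cell surface, had 3.72, 2.68 and 2.47 CPM in the MCL libraries, against 11.6, 11.4 and 13.0 CPM in the TNF-α libraries (-2.01 ± 0.17). The MCL libraries of CCND1 overlapped the untreated ones, which had 106, 108 and 105 CPM. Of 40 immediate-early genes 7 rose, 21 fell and 12 did not pass (median -0.18, with 7 and 16 under library totals). IER3 had 1.53, 1.76 and 1.42 CPM in the MCL libraries, against 6.38, 7.87 and 11.1 CPM in the TNF-α libraries (-2.42 ± 0.21). ZFP36L2, an mRNA decay factor, had 51.7, 55.6 and 51.6 CPM in the MCL libraries, against 95.7, 99.8 and 95.6 CPM in the TNF-α libraries (-0.87 ± 0.05) and IER2 had 39.3, 40.2 and 41.0 CPM in the MCL libraries, against 72.0, 67.0 and 66.1 CPM in the TNF-α libraries (-0.77 ± 0.06), both below the untreated libraries as well, which had 156, 143 and 147 CPM of ZFP36L2.

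Regulators of cell death changed in a few members. Of 34 tested, 3 rose, 9 fell and 22 did not pass (median -0.08). The shares were 8.82% higher and 26.5% lower, against 10.9% and 15.1% over all tested genes. PMAIP1, the pro-apoptotic NOXA, had 104, 95.4 and 97.2 CPM in the MCL libraries, against 45.6, 45.9 and 44.7 CPM in the TNF-α libraries (1.12 ± 0.05, adjusted p = 4.45e-28). BCL2L1, which encodes the anti-apoptotic BCL-XL, had 59.6, 64.2 and 62.9 CPM in the MCL libraries, against 96.1, 96.6 and 104 CPM in the TNF-α libraries (-0.67 ± 0.05, adjusted p = 1.06e-17), and BCL2A1, an anti-apoptotic target of NF-kB, had 7.49, 7.44 and 6.86 CPM in the MCL libraries, against 13.4, 14.2 and 17.2 CPM in the TNF-α libraries (-1.04 ± 0.13). CFLAR, an inhibitor of caspase 8, had 67.9, 66.1 and 63.0 CPM in the MCL libraries, against 90.1, 90.0 and 82.7 CPM in the TNF-α libraries (-0.41 ± 0.05). In each of these 4 genes the groups did not overlap. Of 26 p53 targets 1 rose, 11 fell and 14 did not pass (median -0.15), among them the death receptor FAS at -0.87 ± 0.09 and CDKN1A, the cell cycle inhibitor p21, at -0.27 ± 0.03.

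Of 47 replication and mitosis genes 8 rose and 10 fell (17% and 21.3%, against 10.9% and 15.1% over all tested genes), with a median of -0.03 that was 0.00 with library totals. MKI67, the proliferation marker, had 697, 649 and 689 CPM in the MCL libraries, against 860.0, 851 and 833 CPM in the TNF-α libraries (-0.32 ± 0.03) and E2F1, an activator of replication genes, had 91.4, 87.5 and 88.5 CPM in the MCL libraries, against 70.1, 73.2 and 77.0 CPM in the TNF-α libraries (0.28 ± 0.05), in opposite directions. Of 44 genes of the MYC network and ribosome biogenesis 6 rose and 10 fell (13.6% and 22.7%, with a median of -0.05). RRP1B, a ribosome biogenesis factor, was at -0.36 ± 0.04 and MXD1, an antagonist of MYC, at 0.35 ± 0.07. Of 205 zinc finger genes of chromosome 19, 8 were higher, 21 were lower and 176 did not pass, against 11947 of 16146 that did not pass over all tested genes. With library totals 13 were higher and 17 lower. Of 21 histone genes 2 rose (9.52%, near the 10.9% over all tested genes), 0 fell and 19 did not pass. HIST3H2A, 1 of the pair that rose, did not pass with DESeq2 (adjusted p = 0.0565) or without TNF-α replicate 1 or 2 or MCL replicate 1 or 2 (adjusted p between 0.0715 and 0.22).

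Haematopoietic regulators were lower in most members. Of 34 tested lineage genes 2 rose, 21 fell and 11 did not pass, a share of 61.8% lower (median -0.21; 3 and 17 with library totals). GATA2, a factor of stem and progenitor cells, had 344, 359 and 354 CPM in the MCL libraries, against 553, 553 and 547 CPM in the TNF-α libraries (-0.64 ± 0.03, adjusted p = 3.34e-24). SPI1, the myeloid factor PU.1, had 142, 131 and 143 CPM in the MCL libraries, against 218, 221 and 215 CPM in the TNF-α libraries (-0.66 ± 0.04), and LYL1, a factor of early progenitors, had 149.5, 147 and 149 CPM in the MCL libraries, against 219, 224 and 237 CPM in the TNF-α libraries (-0.61 ± 0.04). GP1BA, a platelet surface receptor, had 185, 176 and 186 CPM in the MCL libraries, against 275, 279 and 279.6 CPM in the TNF-α libraries (-0.61 ± 0.04). Their positions relative to untreated cells differed: the untreated libraries had 486, 482 and 486 CPM of GATA2 and 302, 298 and 299 CPM of LYL1, above the MCL libraries, but 133, 128 and 135 CPM of SPI1 and 137, 129 and 126 CPM of GP1BA, near or below them. By transcription factor family as annotated in the deposited table, 8 of 23 ETS genes fell (34.8%) and 2 rose (8.7%). Of 43 bHLH genes 16 fell (37.2%) and 8 rose (18.6%), and of 49 homeobox genes 14 fell (28.6%) and 5 rose (10.2%). Of 42 bZIP genes 14 rose (33.3%) while 12 fell (28.6%). Over all tested genes 15.1% fell and 10.9% rose.

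Of 13 protein-coding genes of the mitochondrial chromosome 0 rose, 9 fell and 4 did not pass (median -0.25; 8 fell with library totals). MT-CO1, a subunit of cytochrome c oxidase, had 9940.1, 11075 and 10290.0 CPM in the MCL libraries, against 12238, 12168 and 11858 CPM in the TNF-α libraries (-0.21 ± 0.03, adjusted p = 2.4e-08), and MT-ND5, of complex I, had 1965, 2084 and 2119 CPM in the MCL libraries, against 2719.5, 2633 and 2432 CPM in the TNF-α libraries (-0.34 ± 0.04). The ribosomal RNA gene MT-RNR2 had 7155, 7673 and 7129.7 CPM in the MCL libraries, against 8514, 8816 and 8636 CPM in the TNF-α libraries (-0.24 ± 0.03). These genes make up the mitochondrial share of counts given above, which was lower in the MCL libraries, and their reads can also match nuclear copies. With both drugs the share was 4.30% ± 0.143, against 5.49% ± 0.0476 with ruxolitinib alone (SD, n = 3 each). MT-ATP6 was at -0.25 ± 0.07 and lost its call in 6 of the alternatives, among them the fit of the 6 libraries alone (-0.24, adjusted p = 0.0829).

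Among protein-coding genes ranked by change, several with no list stood out. TRIM16L, a relative of the NRF2-linked TRIM16, had 11.6, 13.0 and 9.58 CPM in the MCL libraries, against 0.986, 0.901 and 0.621 CPM in the TNF-α libraries (3.76 ± 0.22). MSC, a bHLH repressor, had 24.5, 25.9 and 27.7 CPM in the MCL libraries, against 1.97, 2.46 and 2.42 CPM in the TNF-α libraries (3.50 ± 0.14), and C3orf80 had 5.78, 6.86 and 4.57 CPM in the MCL libraries, against 1.25, 0.661 and 0.621 CPM in the TNF-α libraries (2.77 ± 0.26). At the lower end, EPHA2, a receptor tyrosine kinase, had 5.31, 6.59 and 5.38 CPM in the MCL libraries, against 31.1, 32.7 and 29.3 CPM in the TNF-α libraries (-2.43 ± 0.11), and untreated cells had 8.61, 9.83 and 10.8 CPM. ANO9, of the anoctamin family, had 7.96, 4.24 and 7.85 CPM in the MCL libraries, against 29.8, 30.2 and 25.0 CPM in the TNF-α libraries (-2.07 ± 0.16), TMCC2, a transmembrane coiled-coil protein, had 11.5, 11.3 and 14.2 CPM in the MCL libraries, against 46.0, 48.8 and 54.1 CPM in the TNF-α libraries (-2.01 ± 0.09), and the transcription factor gene SP6 had 5.78, 5.88 and 8.90 CPM in the MCL libraries, against 25.8, 22.1 and 25.0 CPM in the TNF-α libraries (-1.82 ± 0.12). In these 4 the highest MCL library was under the lowest TNF-α library by more than 2-fold. HES1, a repressor that Notch signalling induces, had 1.65, 1.50 and 1.30 CPM in the MCL libraries, against 4.86, 4.44 and 6.27 CPM in the TNF-α libraries (-1.80 ± 0.21), and untreated cells had 11.1, 9.56 and 10.2 CPM, so the MCL libraries lay farther from untreated cells than the TNF-α ones. IL18R1, a receptor subunit for IL-18, had 32.8, 31.5 and 31.5 CPM in the MCL libraries, against 110.2, 111 and 108 CPM in the TNF-α libraries (-1.78 ± 0.06), and ADAMTS14, a procollagen peptidase, had 1.89, 1.57 and 1.92 CPM in the MCL libraries, against 8.41, 7.57 and 8.57 CPM in the TNF-α libraries (-2.18 ± 0.24).

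Of the 166 genes named by rule 65 overlap another tested gene, for example SQSTM1 with MGAT4B, FTH1 with BEST1, IL18R1 with IL1RL1 and BCL2L1 with ABALON, and their counts are uncertain to that extent.

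Long non-coding RNAs were ranked by the same rule at a lower minimum of 2 CPM. SLC7A11-AS1 had 2.42, 2.42 and 3.52 CPM in the MCL libraries, against 0.131, 0.360 and 0.186 CPM in the TNF-α libraries (3.56 ± 0.36), but it overlaps SLC7A11 and strand use is not given, so its reads cannot be told apart from those of that gene. MIR22HG, the host gene of the microRNA miR-22, had 24.3, 19.5 and 19.9 CPM in the MCL libraries, against 7.69, 8.71 and 8.01 CPM in the TNF-α libraries (1.38 ± 0.11), and MAFG-DT, the divergent transcript of MAFG, had 3.48, 4.51 and 4.94 CPM in the MCL libraries, against 1.58, 1.80 and 1.68 CPM in the TNF-α libraries (1.35 ± 0.24). AC007278.2, which overlaps IL18RAP, had 0.708, 0.914 and 0.865 CPM in the MCL libraries, against 3.29, 2.34 and 3.35 CPM in the TNF-α libraries (-1.85 ± 0.33), and ITGB2-AS1, which overlaps ITGB2, had 0.826, 0.849 and 0.618 CPM in the MCL libraries, against 2.76, 2.16 and 3.04 CPM in the TNF-α libraries (-1.79 ± 0.34). The lowest values of each rest on few reads.

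The levels in untreated cells divide the genes that fell. Of 351 genes that were at least 2-fold lower with MCL, the mean of the MCL libraries lay between the means of the untreated and the TNF-α libraries in 126 and below the untreated mean in 225. Of 124 that were at least 2-fold higher, 123 had an MCL mean above the untreated mean. Over all genes that passed, 730 of 2442 lower and 220 of 1757 higher genes lay between the other means. These counts use the same TNF-α libraries on both sides and are given without a test.

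The same drug was also given with ruxolitinib, in 6 libraries that the first comparison does not use and which therefore share no library with it. In cells given MCL with ruxolitinib against ruxolitinib alone, 8347 genes passed (51.7%), 4012 higher (24.8%) and 4335 lower (26.8%), and changes of 2-fold or more went up in 517 (3.2%) and down in 1101 (6.82%). Of the 1757 genes that were higher with MCL alone, 1390 were also higher there (79.1% of them, and 34.6% of the 4012), and 42 were lower. Of the 2442 that were lower, 1958 were also lower (80.2%, and 45.2% of the 4335), and 62 were higher. Of the at least 2-fold changes, 100 of 124 higher and 258 of 351 lower genes passed in the same direction, and 0 and 3 in the opposite one. Over 16146 genes Pearson's r between both sets of log2 changes was 0.65, a description over genes that are not independent replicates.

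Effects differed in size between the settings in 4033 genes (25%) by the test of the difference itself, the change with ruxolitinib minus that without it, positive in 1962 (12.2%) and negative in 2071 (12.8%). At least 2-fold differences were positive in 178 genes (1.1%) and negative in 301 (1.86%). HMOX1 had 529, 569 and 519.7 CPM in the libraries with both drugs, against 0.789, 0.623 and 0.175 CPM with ruxolitinib alone, and its change exceeded that without ruxolitinib by 2.96 ± 0.54 (adjusted p = 0.000127). The ruxolitinib libraries held only 3 to 13 HMOX1 counts each. DNAJB4 had 269, 279 and 280.2 CPM with both drugs, against 14.9, 16.1 and 18.0 CPM with ruxolitinib alone, a difference of 1.82 ± 0.10. Among genes that were lower, IL18R1 had 4.87, 3.93 and 4.06 CPM with both drugs, against 92.6, 84.1 and 93.2 CPM with ruxolitinib alone (difference -2.61 ± 0.11, adjusted p = 1.1e-29), and EHD1, an endocytic recycling protein, had 29.8, 31.2 and 33.8 CPM, against 303, 323 and 294 CPM (-1.96 ± 0.06). In each of these 4 the change was larger with ruxolitinib than without it.

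NQO1 had a difference of -0.68 ± 0.22 (adjusted p = 0.0161) and MSC one of -0.65 ± 0.21 (adjusted p = 0.0191), both raised by less with ruxolitinib, while SRXN1 was at 0.03 ± 0.44 (adjusted p = 0.968). By list, differences were positive in 22 and negative in 2 of the 40 HSP70 and co-chaperone genes, and positive in 12 and negative in 0 of the 21 amino acid genes. Redox lists had differences of both signs, positive in 6 and negative in 7 of 31 glutathione genes, 2 and 5 of 20 thioredoxin genes, 1 and 6 of 17 genes of NADPH supply, and 4 and 7 of 29 genes of haem and iron. Differences were negative in 15 and positive in 5 of the 26 NF-kB genes. Of the 13 protein-coding mitochondrial genes they were negative in 9 and positive in 0. The mitochondrial ribosomal RNA gene MT-RNR2, outside that list, had a positive difference of 0.29 ± 0.05 (adjusted p = 1.37e-05). Its change with ruxolitinib did not pass (0.05 ± 0.03, adjusted p = 0.252). Interferon-stimulated genes had mostly positive differences, with 18 positive and 3 negative among 50. IFIT1 had 8.75, 9.28 and 7.63 CPM with both drugs, against 13.5, 13.1 and 10.8 CPM with ruxolitinib alone, a change of -0.54 ± 0.10 that was smaller in size than without ruxolitinib (difference 0.62 ± 0.11, adjusted p = 2.18e-05). Its level with ruxolitinib alone was already below that of the MCL libraries, which had 40.5, 43.6 and 43.9 CPM.

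Among the 166 genes named by rule, 2 passed in opposite directions in the 2 settings. CEMIP2, a cell surface hyaluronidase, had 169, 169 and 171 CPM in the MCL libraries, against 209, 199.8 and 198 CPM in the TNF-α libraries (-0.25 ± 0.04), but 199.9, 192 and 203 CPM with both drugs, against 92.2, 90.7 and 96.6 CPM with ruxolitinib alone (1.09 ± 0.04, difference 1.34 ± 0.05). CDKN1A had 332, 333 and 334 CPM with both drugs, against 271, 279.9 and 259.7 CPM with ruxolitinib alone (0.30 ± 0.03), where its change without ruxolitinib was -0.27 ± 0.03 (difference 0.57 ± 0.05, adjusted p = 5.82e-15).

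**Figure D5:**
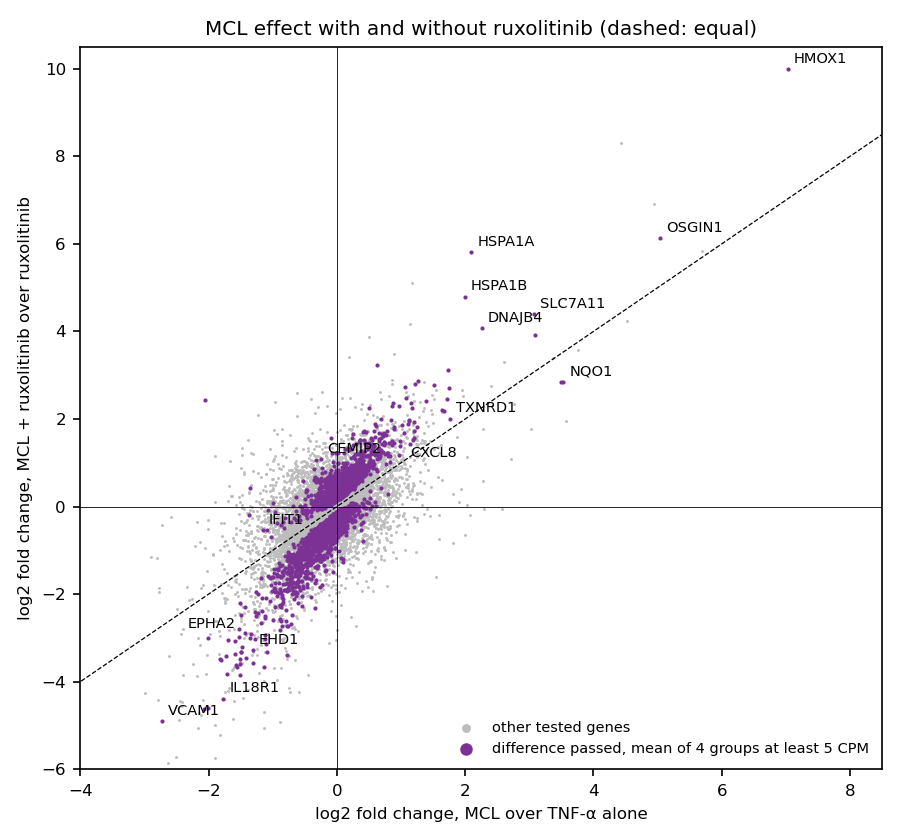
Log2 fold change of MCL with ruxolitinib over ruxolitinib alone (vertical axis) against that of MCL over TNF-α alone (horizontal axis), 1 point per tested gene. Purple points passed the test of the difference with a mean of at least 5 CPM over the 4 groups, the dashed line marks equal changes, and HMOX1, HSPA1A, HSPA1B and DNAJB4 lie above it while IL18R1 and VCAM1 lie below it.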

How the data were processed

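Gene counts of 15 RNA-seq libraries were used as deposited by the authors in 1 table. The submitters' processing notes name HISAT2 2.0.5, featureCounts 1.5.0-p3 and DESeq2 1.16.1 and the builds hg38 and mm10, without role or order. Neither strand use nor the treatment of reads matching several places is stated. Groups followed the labels. Genes were kept by edgeR's filterByExpr (minimum count 10), scaled by TMM and fitted with 1 coefficient per group over all 15 libraries (edgeR 4.0.16, limma 3.58.1, R 4.3.3; robust glmQLFit and glmQLFTest). Adjusted p-values are Benjamini-Hochberg over 16146 genes, threshold 0.05, and an SE is the log2 change over the root of F. DESeq2 1.42.0 was an alternative. The fit was checked on simulated data, with 50 changed genes at each size of change. It recovered 38% of 1.25-fold, 66% of 1.5-fold, 64% of 2-fold and 96% of 4-fold changes, with 7 false calls. The simulation changed a far smaller share of genes than the 26% that passed in the data. The Benjamini-Hochberg cutoff depends on that share, so these recovery rates do not carry over to the reported fit. A gene that did not pass may still have changed, also by 2-fold.

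Genes were named by rule: the 12 highest and 12 lowest changes (at least 5 CPM in the higher group, no overlap), the 6 largest gains and losses in CPM, up to 4 of each list by p, 4 long non-coding RNAs each way (at least 2 CPM), the 5 smallest p of the difference each way, and STAT3, STAT5A, STAT5B, NFE2L2, KEAP1 and JAK2. The comparison, gene lists and rules were chosen with earlier results of these data known. Lists are described by counts and medians, without a test. Each count is to be read beside the 10.9% higher and 15.1% lower over all tested genes. Promoter and element searches used RefSeq windows, matched to genes by Ensembl identifier and, where that failed, by symbol.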

Additional observations from a re-analysis of the deposited data

Results flagged for a closer look

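The change with MCL was compared in the presence and absence of ruxolitinib, by edgeR's quasi-likelihood test of the difference (change with ruxolitinib minus change without it, log2). Of 166 genes named by rule, 115 passed this test, and 44 of them differed by at least 2-fold, 17 with a positive and 27 with a negative difference. Over all 16146 tested genes 25% passed, and at least 2-fold differences were positive in 1.1% and negative in 1.86%. The rules named genes mostly for a large change or a small p, and 1 rule used the p of this difference. These counts therefore partly follow from the choice of genes. Values below are differences of log2 changes, and no explanation was tested.

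Among chaperone genes the differences were 3.72 for HSPA1A, 2.81 for HSPA1B, 1.82 for DNAJB4, 1.67 for DNAJB1 and 1.31 for HSPH1, where the near-identical HSPA1A and HSPA1B are uncertain one by one. Among redox genes they were 2.96 for HMOX1, 1.32 for SLC7A11, 1.11 for OSGIN1, 1.38 for CHAC1 and -1.14 for GPX3. Other positive differences were 1.59 for ATF3, 1.41 for DDIT4, 1.01 for HERPUD1, 1.44 for ABCA1, 1.34 for CEMIP2, 1.20 for CXCL3, 1.17 for MXD1 and 1.02 for MIR22HG. Each of these genes but CEMIP2 and GPX3 had risen with MCL in both settings, and by more with ruxolitinib.

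Negative differences among genes of TNF-α and NF-kB signalling and surface receptors were -2.61 for IL18R1, -2.54 for TNFRSF4, -2.24 for TRAF1, -2.17 for VCAM1, -2.05 for IER3, -2.04 for EBI3, -2.03 for ICAM1, -1.76 for TNFAIP2, -1.26 for LTB and -1.11 for BCL2A1. Among transcriptional regulators they were -1.92 for CXXC5, -1.82 for CIITA, -1.67 for SP6, -1.39 for GATA2, -1.20 for NFE2, -1.15 for JUNB, -1.15 for ZNF792 and -1.06 for LYL1. The others were -2.60 for TMCC2, -2.55 for ANO9, -1.96 for EHD1, -1.70 for ALS2CL, -1.68 for ADAMTS14, -1.53 for AC007278.2, -1.04 for EGLN3 and -1.0037 for CCND1. EGLN3 rose with MCL alone, and its change was smaller with ruxolitinib.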

How the results depend on the processing

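Counts of called genes over all tested genes stayed within 1.5 times the reported ones in the settings run for them: DESeq2 size factors, library totals, no filter on low counts, DESeq2, the replicate number as a block, the 6 libraries alone, no mitochondrial genes and each library left out. DESeq2 called 1704 higher and 2036 lower genes, and the 6 libraries alone 2145 and 2330. Leaving out each library in turn gave 1390 to 1763 higher and 1845 to 2181 lower genes for MCL against TNF-α, 3678 to 3817 and 3793 to 4166 for MCL with ruxolitinib against ruxolitinib, and 1591 to 2028 positive and 1797 to 2131 negative differences. Where an arm then held 2 libraries, the spread was pooled over all groups. Replicate numbers showed no clear pairing of the libraries. Deviations of same-numbered MCL and TNF-α libraries correlated at 0.00404, 0.0642 and -0.0578, and not every library correlated best with its own number. For both drugs and ruxolitinib alone the same-numbered values were 0.0428, 0.139 and 0.075, all positive. Deviations within a group of 3 depend on each other, so these values cannot exclude a pairing. The replicate block gave 1763 higher and 2476 lower genes for MCL against TNF-α. List counts moved by more with library totals, to 5 higher chaperonin genes (2 reported), 11 higher glycolysis and hypoxia genes (6 reported, 10 with DESeq2 size factors) and 13 higher chromosome 19 zinc finger genes (8 reported), and by 1 gene in 3 counts of lower genes. Of 166 named genes, 0 reversed, and 7 lost the call in at least one setting run for them: HIST1H2AC, HIST3H2A, JAK2, MT-ATP6, NFE2L2, NR1H2 and TMEM135. STAT3 had no call to lose, and 7 mitochondrial genes were not in the setting without them. The cause was not tested. Genes under about 1 CPM rest on few counts, and their fold changes are the least certain.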
